A study of Mus musculus with 4 samples.

Results

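Eomes-positive cells were Plzf +/+ testis cells selected on at least 1 UMI (unique molecular identifier, which marks 1 captured transcript molecule) of Eomes. There were 85 of them among 897 Plzf +/+ cells, in a series of 1249 cells. They came from 3 libraries, with 38 on plate 1, 27 on plate 2 and 20 on plate 4. Because Eomes chose the cells, its own level is a description and was not tested. Cells just inside the rule had 1 Eomes UMI, which was true of 74, and cells just outside it had 0. The other 11 had 2, and no cell had more.

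The cells were sorted one per well for tdTOMATO fluorescence from testes of 4 wk old mice that carried a knock-in placing iCreERt2 and tdTomato under control of Eomes (Eomes-iCreERt2-tdTomato). Dead cells were gated out with DAPI, and the tdTOMATO gate was set with littermates that lack the reporter. All groups shared this allele, so every cell compared here had already passed a gate on the Eomes reporter, and tdTOMATO protein can be present in a cell where no Eomes UMI was captured. Plates 1 and 2 held Plzf +/+ cells, plate 3 held cells homozygous for the luxoid mutation of Plzf (Plzf lu/lu), and plate 4 held both genotypes, with the genotype of a cell taken from the table that lists it. The labels give the cell type as germ cell and name no animals, so the spread between libraries may be technical.

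Spermatogonial stem cells sustain sperm production from the wall of the seminiferous tubule, where Sertoli cells supply GDNF. GDNF acts through the co-receptor GFRA1 and the tyrosine kinase RET, and its targets include Etv5, Bcl6b, Pou3f1 and Lhx1. EOMES and T (brachyury) are related T-box transcription factors best known from the formation of mesoderm and endoderm in the early embryo, and EOMES also acts in T and NK cells. In the mouse genome (GRCm38.p6, RefSeq) Eomes lies on chromosome 9 from 118478186 to 118486132 and T on chromosome 17 from 8434423 to 8442496, and both are protein coding.

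An Eomes UMI was found in 12.0% of the cells of plate 1, 8.91% of plate 2 and 7.22% of plate 4. The mean was 9.37% ± 2.42 (SD, n = 3), and the exact Clopper-Pearson 95% interval over all cells was 7.64% to 11.6%. These intervals cover counting error only. Depth of the Plzf +/+ cells ran from 612 to 95069 UMIs with a median of 5908, and that of the Eomes-positive cells from 1398 to 53784 with a median of 7476. In each library the Eomes-positive cells were the deeper ones, with medians of 7148, 7305 and 8312 UMIs on plates 1, 2 and 4 against 5422, 6033 and 5536 UMIs in cells without an Eomes UMI. After every cell was thinned to 2000 UMIs, which left out 63 shallower Plzf +/+ cells, 23 of 834 cells (2.76%) still had an Eomes UMI. A cell without an Eomes UMI is therefore not shown to lack the transcript. For this reason each Eomes-positive cell was set against 3 cells of the same library that had no Eomes UMI and a like number of UMIs (255 matched Eomes-zero cells, with medians of 7017, 7260 and 8397 UMIs on plates 1, 2 and 4).

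Eomes UMIs were most frequent in cells that also carried T. Of the 134 Plzf +/+ cells with a T UMI, 33 (24.6%, 95% interval 17.6% to 32.8%) had an Eomes UMI, against 52 of the 763 cells without T (6.82%, 5.13% to 8.84%). By library these shares were 34.7% against 7.84% on plate 1, 17.3% against 7.17% on plate 2 and 21.2% against 5.33% on plate 4, so the order was the same in each. Of the 566 cells with a Gfra1 UMI 12.4% had an Eomes UMI, against 4.53% of the 331 cells without one, whose median depth was lower (4596 against 6560 UMIs). Thinned to 2000 UMIs, both contrasts were smaller, at 6 of 131 cells (4.58%) with T against 17 of 703 (2.42%) without, and 17 of 557 (3.05%) with Gfra1 against 6 of 277 (2.17%) without. Of the 229 cells with 3 or more spermatid genes 21 (9.17%) had an Eomes UMI, against 64 of 668 cells with fewer (9.58%), but the former were deeper (median 8128 against 5422 UMIs), and after thinning to 2000 UMIs the counts were 1 of 217 (0.461%) against 22 of 617 (3.57%). Of the cells with 3 or more Sertoli cell genes 7 of 78 (8.97%) had an Eomes UMI, and 0 of 75 after thinning. Of the cells with 2 or more T and NK cell genes 3 of 17 (17.6%) had one, and 0 of 8 after thinning. Of the 168 cells with no UMI of Gfra1, T, Id4, Ret or Zbtb16, 10 (5.95%) had an Eomes UMI, at a median depth of 3597 UMIs. After thinning it was 4 of 124 (3.23%). In smaller subsets, 1 of 40 cells that had 3 or more spermatid genes and none of those 5 genes had an Eomes UMI, and 0 of 26 cells with 5 or more Sertoli cell genes did. The latter allows a share of cells with a UMI of up to 11.5%, which includes the share over all cells, so no difference was detectable.

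The identity list holds 11 genes used to mark stem and progenitor spermatogonia, and Eomes-positive cells had UMIs of more of them than matched cells. The mean number per cell was 3.42, 3.26 and 3.50 genes in the Eomes-positive cells of plates 1, 2 and 4 and 2.71, 2.67 and 2.70 in the matched cells. The groups did not overlap, and the difference was 0.70 ± 0.10 genes (SD, n = 3 libraries). Of the 85 Eomes-positive cells 5 had none of the 11 genes, 20 had 5, 4 had 6 and 2 had 7, and of the 255 matched cells 24 had none, 14 had 5, 7 had 6 and 1 had 7. With 3 pairs of libraries an exact sign-flip permutation test cannot go below p = 0.25, so none was run. After thinning to 2000 UMIs the difference was 0.30 genes and the groups overlapped, with 1.38, 1.48 and 1.16 genes against 1.03, 1.20 and 0.895, although each library kept its direction. It was 0.65 genes when at least 2 UMIs were asked for. It was 0.57 genes without 27 Eomes-positive cells that carried other cell types' genes or unusual depth (the doubted cells, described below).

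In the share of cells with at least 1 UMI, T showed the largest separation of the identity genes. It was detected in 44.7%, 33.3% and 35.0% of the Eomes-positive cells of plates 1, 2 and 4 and in 11.4%, 18.5% and 8.33% of the matched cells. Every library of Eomes-positive cells was above every library of matched cells. Gfra1 was detected in 84.2%, 81.5% and 80.0% against 66.7%, 69.1% and 60.0%, again without overlap. Id4, an inhibitor of DNA binding associated with stem cell activity in the germline, was detected in 52.6%, 66.7% and 55.0% against 37.7%, 43.2% and 38.3%, and Bmi1, a Polycomb group gene, in 60.5%, 59.3% and 65.0% against 49.1%, 45.7% and 51.7%. Both were again higher in all libraries. After thinning to 2000 UMIs the shares of T still did not overlap (13 of 81 Eomes-positive and 8 of 243 matched cells), while those of Gfra1 (43.2% against 34.2%), Id4 (21.0% against 14.8%) and Bmi1 (23.5% against 15.2%) overlapped between libraries.

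Pdx1, a homeobox gene known from pancreas development, was rarer but also did not overlap, at 15.8%, 11.1% and 10.0% of Eomes-positive cells against 8.77%, 4.94% and 8.33% of matched cells. After thinning it was found in 3.70% of both groups, and without the doubted cells its libraries overlapped (10.3% against 9.20%). The remaining identity genes overlapped between the groups. Nanos2, an RNA-binding repressor of differentiation, was found in 10.6% of Eomes-positive and 7.84% of matched cells. Zbtb16, which encodes PLZF, was found in 36.5% and 34.1%, but after thinning it was lower without overlap, at 11.1% against 14.8%. The progenitor markers on the identity list were no more frequent in the Eomes-positive cells. Lin28a was found in 20.0% against 25.1%, Nanos3 in 15.3% against 24.3% and Neurog3 in 1 of 85 against 6 of 255 cells. Pax7 was found in 2 of 85 and 3 of 255 cells. Across the 8389 genes tested below, the share of cells with a UMI lay higher in all 3 libraries for 7.03% and lower in all 3 for 3.37%. Of the 7 identity genes among those 8389 (Gfra1, Id4, T, Zbtb16, Bmi1, Lin28a and Nanos3), 4 were higher in this sense and 0 lower.

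**Figure D1:**
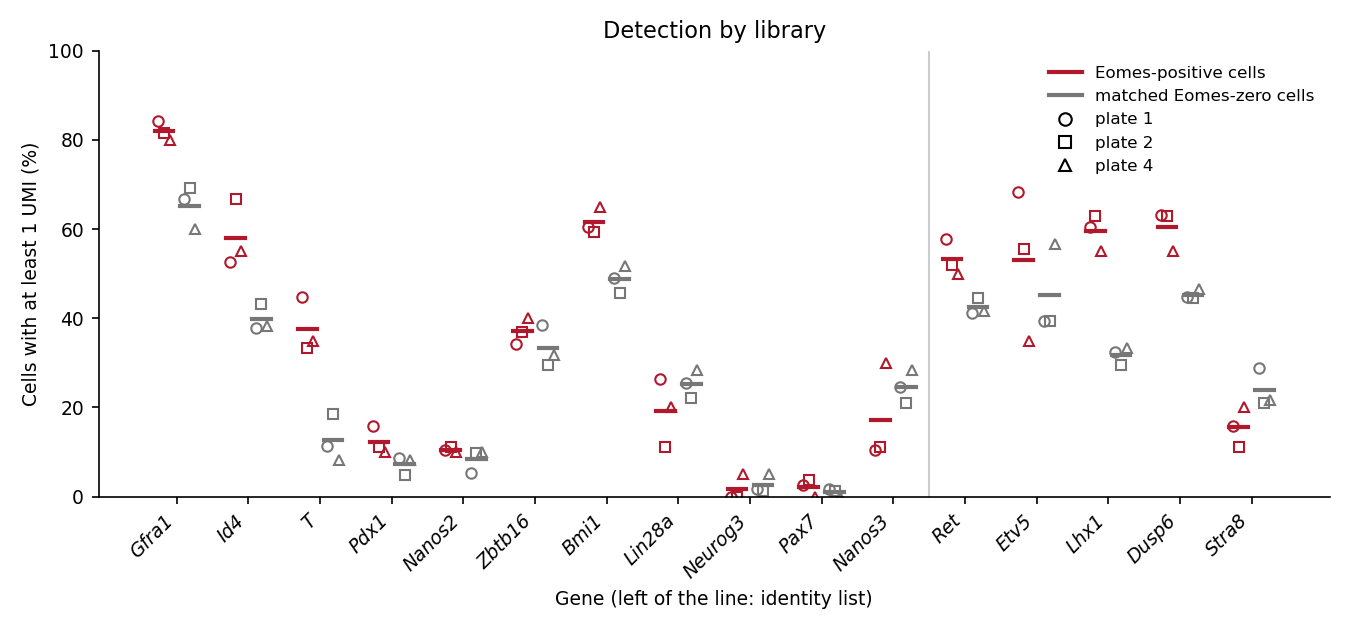
Share of cells with at least 1 UMI (%) for the 11 identity genes and 5 further genes, with 1 point per library and the mean of the 3 libraries as a bar, for Eomes-positive (red) and matched Eomes-zero cells (grey). For T the Eomes-positive libraries lie between 33.3% and 44.7%, above all matched libraries, while for Zbtb16, Lin28a and Nanos3 the groups overlap.

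The combination of Gfra1, T and Id4 UMIs in 1 cell was found in 23 of 85 Eomes-positive cells (27.1%, 95% interval 18.0% to 37.8%) and in 21 of 255 matched cells (8.24%, 5.17% to 12.3%). T was almost always accompanied by Gfra1, since 32 of the 33 Eomes-positive cells with T also had Gfra1. At the other end, 12 Eomes-positive cells (14.1%) and 73 matched cells (28.6%) had none of the 3 genes. The Eomes-positive cells had 0 to 12 Gfra1 UMIs with a median of 2, 0 to 4 T UMIs with a median of 0, and 0 to 6 Id4 UMIs with a median of 1. Of the 11 cells with 2 Eomes UMIs, 10 had Gfra1, 7 had T and 6 had Id4.

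To ask which genes differed across the transcriptome, UMIs were summed over the cells of each group in each library and compared with edgeR's quasi-likelihood test with the library as a block. Levels are given as CPM, the UMIs of a gene scaled to a common total of all UMIs in the summed cells. Of 8389 genes tested 2 were called at an adjusted p under 0.05 (0.0238%), both lower in Eomes-positive cells, and 0 were higher. At an unadjusted p under 0.05 there were 648 genes (7.72%), with 230 higher (2.74%) and 418 lower (4.98%). DESeq2 called 0 genes, with 1.20% at an unadjusted p under 0.05.

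The first gene called was Pabpc6, of the family of cytoplasmic poly(A)-binding proteins. Its level was 6.57, 55.5 and 93.4 CPM in Eomes-positive cells of plates 1, 2 and 4 and 29.9, 186 and 305 CPM in matched cells. It was lower in each library, while levels differed more between plates than between groups (log2 fold change -1.81, SE 0.24, edgeR adjusted p = 0.0209). The second was Cst12, of the cystatin family of protease inhibitors, at 6.57, 4.27 and 4.45 CPM against 58.6, 39.9 and 64.9 CPM. Its groups did not overlap (log2 fold change -3.36, SE 0.50, edgeR adjusted p = 0.0329). Neither call was made by DESeq2 or without the block, and neither gene passed the filter on low counts once the cells with Sertoli cell or spermatid genes were left out (described below).

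The genes next in order of p-value did not pass the test, and they are given as values. Those with higher levels in Eomes-positive cells included T itself, at 108, 89.7 and 31.1 CPM on plates 1, 2 and 4 against 26.6, 37.2 and 10.6 CPM in matched cells. T was higher within each library, but plate 4 was low in both groups, so the groups overlapped (log2 fold change 1.61, SE 0.33, edgeR adjusted p = 0.118). Nid1, which encodes the basement membrane glycoprotein nidogen, was at 197, 197 and 120 CPM against 96.3, 96.4 and 57.4 CPM, with no overlap (log2 fold change 1.01, edgeR adjusted p = 0.0982). Tcl1, an activator of AKT kinases, was at 243, 214 and 213 CPM against 134, 118 and 107 CPM (0.86). Tjp1, a scaffold of tight junctions, was at 329, 269 and 231 CPM against 186, 156 and 118 CPM (0.82), again without overlap. Syne2, which links the nucleus to the cytoskeleton, had a log2 fold change of 0.86 and Sptbn1, a spectrin of the membrane skeleton, of 0.68. CPM did not overlap between the groups for 5.39% of all genes tested in the higher and 4.57% in the lower direction.

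Genes with lower levels below the threshold were led by Stra8, a target of retinoic acid at the onset of differentiation and meiosis. Stra8 was at 72.3, 38.5 and 26.7 CPM in Eomes-positive cells against 180, 117 and 78.5 CPM in matched cells, with no overlap (log2 fold change -1.48, SE 0.26, edgeR adjusted p = 0.0731). Clu, which encodes a secreted chaperone abundant in Sertoli cells, was at 6.57, 12.8 and 4.45 CPM against 80.8, 30.3 and 39.3 CPM (-2.69). The remaining 10 genes next in order were all lower, with log2 fold changes of -1.83 (Pdzd9) to -0.91 (Rnf32), namely Cox8c, AA467197, Pdzd9, Acyp1, Spdya, 1700029P11Rik, Syngr4, Slc2a3, Rnf32 and Spata4. Against all Eomes-zero cells Rnf32 was at -0.26, Spata4 at -0.27, Acyp1 at -0.33 and AA467197 at -0.47 on the log2 scale. Without the doubted cells Cox8c was at -0.0085. Several of these were far lower on plate 1 than on plates 2 and 4 in both groups, for example AA467197 at 23.0 CPM on plate 1 against 325 and 516 CPM in Eomes-positive cells.

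**Figure D2:**
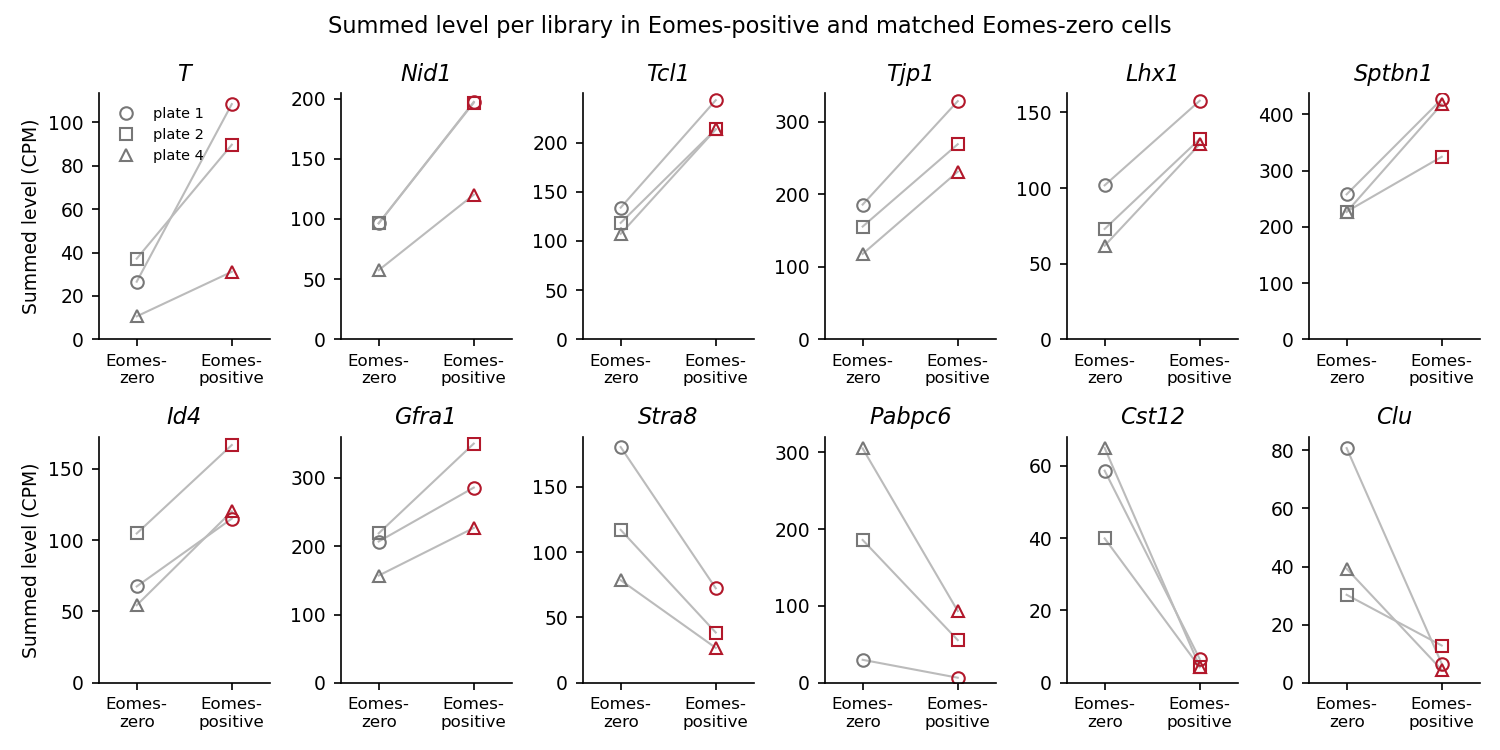
Summed level (CPM, linear axis from 0) of 12 genes in matched Eomes-zero and Eomes-positive cells, with 1 symbol per plate and a line joining the groups of a plate. Each gene moves the same way on all 3 plates, and plate 4 is low for T in both groups. Of the 12 only Pabpc6 and Cst12 passed the test.

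Some Eomes-positive cells also carried transcripts of other cell types. UMIs of 3 or more of 14 spermatid genes (protamines, transition proteins and others) were found in 5, 9 and 7 of the Eomes-positive cells of plates 1, 2 and 4, or 24.7% in all, and in 28.2% of matched cells. UMIs of 3 or more Sertoli cell genes were found in 8.24% against 13.7%, and of 2 or more T and NK cell genes in 3 cells (3.53%) against 3.14%. All 3 of the latter were on plate 2. They were shallow cells of 1477 and 1858 UMIs with 5 and 7 T and NK genes and no UMI of Gfra1, T or Id4, and the deepest Eomes-positive cell, with 53784 UMIs. That cell had all 14 spermatid genes, 7 Gfra1 UMIs and 3 T UMIs and supplied 23.0% of the UMIs of its library's Eomes-positive sum. On plate 2 the summed T and NK list was at 299 CPM in Eomes-positive and 77.1 CPM in matched cells, whereas on plates 1 and 4 it was at 3.29 and 4.45 CPM against 24.3 and 42.3 CPM. Of the 21 Eomes-positive cells with 3 or more spermatid genes, 19 also had a Gfra1 UMI and 7 a T UMI. No caller of doublets was run. The 4 Eomes-positive cells over 4 times the median depth all had 12 or more spermatid genes. Defining germ cell genes were common, with Dazl in 94.1% of the Eomes-positive and 94.9% of matched cells, and Ddx4, a germ cell RNA helicase, in 91.8% and 85.9%. For Ddx4 the libraries did not overlap, also after thinning (70.4% against 51.0%). Tex101 of the same list was lower without overlap, at 50.6% against 56.9%. Of the 10 germ cell genes listed 1 was thus higher and 1 lower, against 7.03% and 3.37% of all genes.

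**Figure D3:**
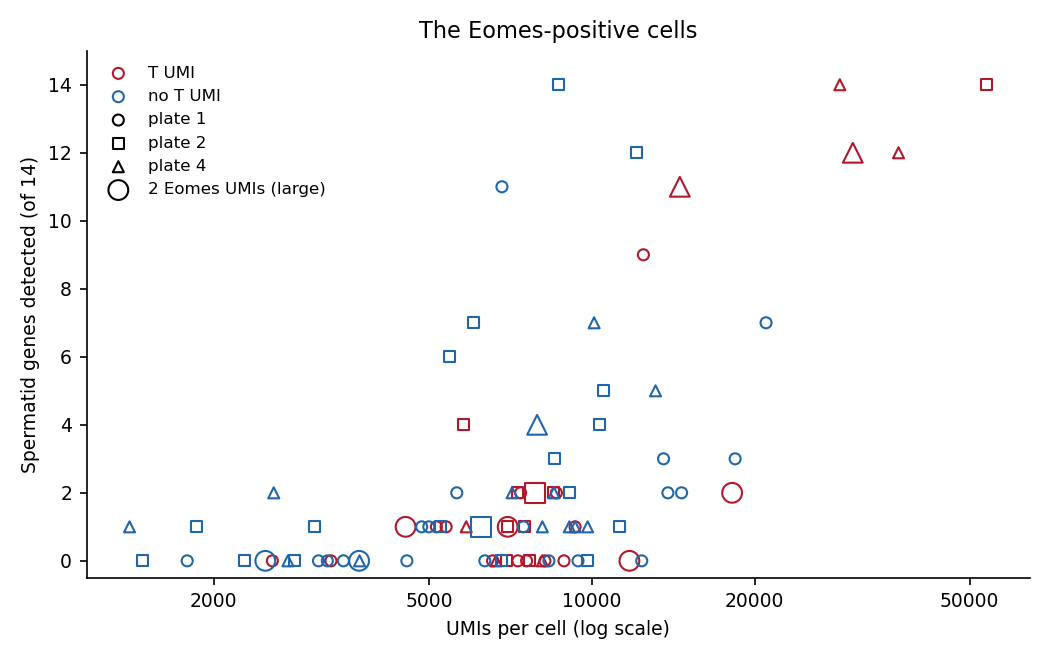
The 85 Eomes-positive cells by UMIs per cell (log scale) and number of spermatid genes detected, with color for T, symbol for plate and large symbols for cells with 2 Eomes UMIs. Of these cells 21 have 3 or more spermatid genes, and the deepest cell, at 53784 UMIs, has all 14.

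Leaving out the doubted cells kept 58 Eomes-positive and 174 matched cells. Doubted cells had 2 or more T and NK genes, 3 or more Sertoli or spermatid genes, or over 4 times the median depth. This choice was made after seeing the data. Of 4951 genes tested 19 were then called by edgeR (0.384%), with 9 higher (0.182%) and 10 lower (0.202%), and 9.23% had an unadjusted p under 0.05. Neither Pabpc6 nor Cst12 passed the filter there. T was higher at 132, 169 and 26.7 CPM against 31.4, 63.3 and 8.93 CPM (log2 fold change 1.73, edgeR adjusted p = 0.00516), although plate 4 gave only 2 T UMIs in each group. Lhx1 was higher at 183, 209 and 173 CPM against 92.8, 79.9 and 98.2 CPM, with no overlap (1.02, edgeR adjusted p = 0.0251). Nid1 (1.02), Tcl1 (0.95), Tjp1 (0.78) and Sptbn1 (0.83) also passed, as did Hist1h1b (1.59), a histone H1 of replicating cells, Sept11 (1.70), of the septin cytoskeleton, and the nuclear RNA Malat1 (0.38). Among the genes that fell were Ldhc, the lactate dehydrogenase of meiotic and postmeiotic germ cells (fold change of -2.05 on the log2 scale, with 4, 8 and 3 UMIs against 28, 147 and 14 on plates 1, 2 and 4), Uchl1, a deubiquitinase of spermatogonia (-0.72), Eif4ebp1, a repressor of translation (-1.36), and Map1lc3b, of the autophagosome (-0.68). Ldhc was lower in each library, but its levels of 18.8, 79.7 and 40.0 CPM against 44.0, 490 and 62.5 CPM overlapped, and the difference was widest on plate 2. Eif4ebp1 was lower on plates 1 and 4 but at 89.7 against 76.6 CPM on plate 2. The ribosomal protein genes Rps26 (-0.45), Rplp2 (-0.36), Rps19 (-0.39) and Rps3a1 (-0.39) fell as well, and so did Gm10800 (-0.72) and Gm15427 (-0.49). Several values moved with the removal of cells. Over all cells the log2 fold change of Hist1h1b was 0.55 (edgeR adjusted p = 0.694), that of Ldhc -1.07, that of Gm10800 -0.23 and that of Rps19 -0.22, and on plate 4 Hist1h1b was at 40.0 against 31.2 CPM, from 3 and 7 UMIs.

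Receptors of GDNF showed higher values in Eomes-positive cells that did not pass the test. Gfra1 was at 286, 350 and 227 CPM against 207, 219 and 157 CPM, with no overlap (log2 fold change 0.53, SE 0.15, edgeR adjusted p = 0.340). Ret was at 131, 132 and 97.9 CPM against 77.5, 89.5 and 54.4 CPM, again with no overlap (0.69, SE 0.23, edgeR adjusted p = 0.399). Sdc4, a heparan sulfate proteoglycan at the cell surface, was within 1 SE of no difference. Of the 7 receptor genes listed, 3 were tested and 0 called.

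Targets and feedback regulators of GDNF and ERK signaling leaned the same way as a group against matched cells, without a called member. Of 18 listed genes 13 were tested, 12 of them with a log2 fold change above 0, and the median was 0.61 beside -0.01 over all genes. The summed level of the list was 1439, 1329 and 1063 CPM in Eomes-positive cells of plates 1, 2 and 4 and 1037, 889 and 729 CPM in matched cells, without overlap. Lhx1, a homeobox gene induced by GDNF, was at 158, 132 and 129 CPM against 102, 73.0 and 61.9 CPM (0.80, SE 0.22, edgeR adjusted p = 0.323). It was detected in 60.5%, 63.0% and 55.0% of Eomes-positive cells against 32.5%, 29.6% and 33.3% of matched cells. Ccnd2, which encodes cyclin D2, was at 391, 256 and 351 CPM against 278, 186 and 171 CPM (0.62, edgeR adjusted p = 0.298). Dusp6, a phosphatase of ERK, had a log2 fold change of 0.52 and the immediate early gene Egr1 of 0.19. Etv5 was detected in 68.4% and 55.6% of the Eomes-positive cells on plates 1 and 2 against 39.5% on both, but in 35.0% against 56.7% on plate 4. Of the 13 tested genes, the share of cells with a UMI was higher without overlap for 6 (Etv4, Pou3f1, Lhx1, Dusp6, Dusp5 and Fos) and lower for none (against 7.03% and 3.37% of all genes). Mycn, a list member that did not pass the filter on low counts, went the other way, with a UMI in 3 of 85 Eomes-positive cells (3.53%) against 31 of 255 matched cells (12.2%) and no overlap between the libraries. After thinning, the libraries still did not overlap for 2 of the 6 genes, Pou3f1 (14.8% against 4.94%) and Fos (11.1% against 5.35%), but they did for Lhx1 (23.5% against 16.5%), Dusp6 (32.1% against 16.9%), Dusp5 (11.1% against 5.76%) and Etv4 (8.64% in both groups). Without the doubted cells the median was 0.42 over 10 genes, with Lhx1 called.

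Transcription factors and surface proteins associated with self-renewal had no called member either. Of 12 self-renewal transcription factors measured, 7 were tested and 0 called. Their median of 0.38 became 0.04 over 5 genes without the doubted cells. Foxo1, Sall4 and Taf4b were each within 1 SE of no difference. Pou5f1 and Sox2 were found in 1 and 0 of 85 cells. Of 11 surface and adhesion genes present 6 were tested and 0 called (median 0.29). Mcam, a cell adhesion molecule, was at 286, 346 and 342 CPM against 221, 224 and 189 CPM (0.58, edgeR adjusted p = 0.323). Epcam, an epithelial adhesion molecule, was at 217, 158 and 165 CPM against 155, 121 and 118 CPM (0.42), while Cd9 was within 1 SE of no difference.

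Among genes that act with Eomes and T in the early embryo, Lhx1 was common, Tbx3 and Mesp1 were detected and most others were found in few cells or none. Of 15 measured genes of the mesendoderm and nodal list, 4 had 0 UMIs in the Eomes-positive cells, and Nodal, Mixl1, Fgf8, Tbx6, Tbx2 and Sp5 were each found in 1 of 85 cells. Tbx3, another T-box gene, was found in 12.9% of Eomes-positive and 7.45% of matched cells, and Gsc in 4 of 85 and 3 of 255 cells. Only Lhx1, which is on this list too, and Mesp1 passed the filter. Mesp1, a basic helix-loop-helix factor of early mesoderm, was lower, at 0, 47.0 and 66.7 CPM against 19.9, 103 and 178 CPM (-1.54, edgeR adjusted p = 0.266).

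Genes of progenitors and differentiating spermatogonia leaned the other way, again with no called member. Of 18 listed genes 12 were tested, 9 of them below 0, with a median log2 fold change of -0.59. The list summed to 743, 632 and 805 CPM in Eomes-positive cells against 1127, 921 and 987 CPM in matched cells. Besides Stra8, Lin28a had a log2 fold change of -0.57 (SE 0.37), Nanos3 of -0.52 (SE 0.37) and Dmrtb1, a regulator of the switch from mitosis to meiosis, of -0.70 (SE 0.57), while Dnmt3a was within 1 SE of no difference. The share of cells with a UMI was lower without overlap for 2 of the 12 and higher for 0 (against 3.37% and 7.03% of all genes). Some members were detected more often, with overlap between libraries. These included Rhox13 (41.2% against 31.4%), Kit (12.9% against 9.02%), Sohlh2 (23.5% against 21.2%) and Dnmt3a (58.8% against 54.9%). The summed Sertoli cell list moved along, at 562, 385 and 351 CPM against 699, 485 and 569 CPM, as did the spermatocyte list at 1604, 2747 and 3972 CPM against 1743, 4208 and 5186 CPM, and their part in the result was not tested. Without the doubted cells the progenitor median was -0.33 over 9 genes and Stra8 had a log2 fold change of -0.86 (edgeR adjusted p = 0.229).

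Lists of the cell cycle showed no common direction. The median was 0.02 on the log2 scale for S phase genes (41 of 42 tested, 0 called) and 0.03 for G2 and M phase genes (49 of 50 tested, 0 called). The G2 and M phase list summed to 10089 against 7717 CPM on plate 1, 6631 against 7786 on plate 2 and 8100 against 8192 on plate 4, so plates differed in direction. The S phase genes with the most UMIs were Nasp (-0.34), Pcna (-0.15) and Hells, which was within 1 SE of no difference, and Cenpf of the G2 and M list had a log2 fold change of 0.15, with Tubb4b and Smc4 within 1 SE of no difference. The list of general germ cell genes leaned lower, at 3017, 3140 and 2976 CPM against 3152, 3451 and 3124 CPM on plates 1, 2 and 4. All 10 of its genes were tested and 0 called, and 9 of them were below 0 with a median of -0.14, among them Mael (-0.18) and Rpl39l (-0.14), while Dazl was within 1 SE of no difference.

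The lists of other cell types gave no called member. The 14 spermatid genes, led by Prm2, Prm1 and Smcp (each within 1 SE of no difference), summed to 223, 15723 and 4621 CPM in Eomes-positive cells against 2100, 3651 and 12722 CPM in matched cells, with the order reversed on plate 2. Of 9 spermatocyte genes tested 8 were below 0, among them Ldhc (-1.07, SE 0.64), and Tex15 and Sycp1 were within 1 SE of no difference. Of 11 Sertoli cell genes present 4 were tested, including Defb19 (-2.32, SE 0.92) and Ctsl, which was within 1 SE of no difference. No gene of the Leydig cell, peritubular myoid cell, macrophage, endothelial cell, T and NK cell and erythroid cell lists passed the filter. The endothelial list was nevertheless higher in each library, at 59.2, 59.8 and 35.6 CPM against 38.7, 27.5 and 19.6 CPM, as was the macrophage list at 9.86, 4.27 and 13.3 CPM against 5.53, 2.75 and 3.02 CPM and the Leydig cell list at 6.57, 4.27 and 4.45 CPM against 1.11, 0 and 1.51 CPM. Their part in the other results was not tested. Among these, Insl3, Lhcgr and Hba-a1 had 0 UMIs in both groups, Nkg7 of T and NK cells was at 98.3 CPM on plate 2 and 0 CPM on plates 1 and 4, and the endothelial genes Kdr (29.6, 17.1 and 13.3 CPM) and Egfl7 (29.6, 29.9 and 13.3 CPM) were low but above the matched cells in each library.

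**Figure D4:**
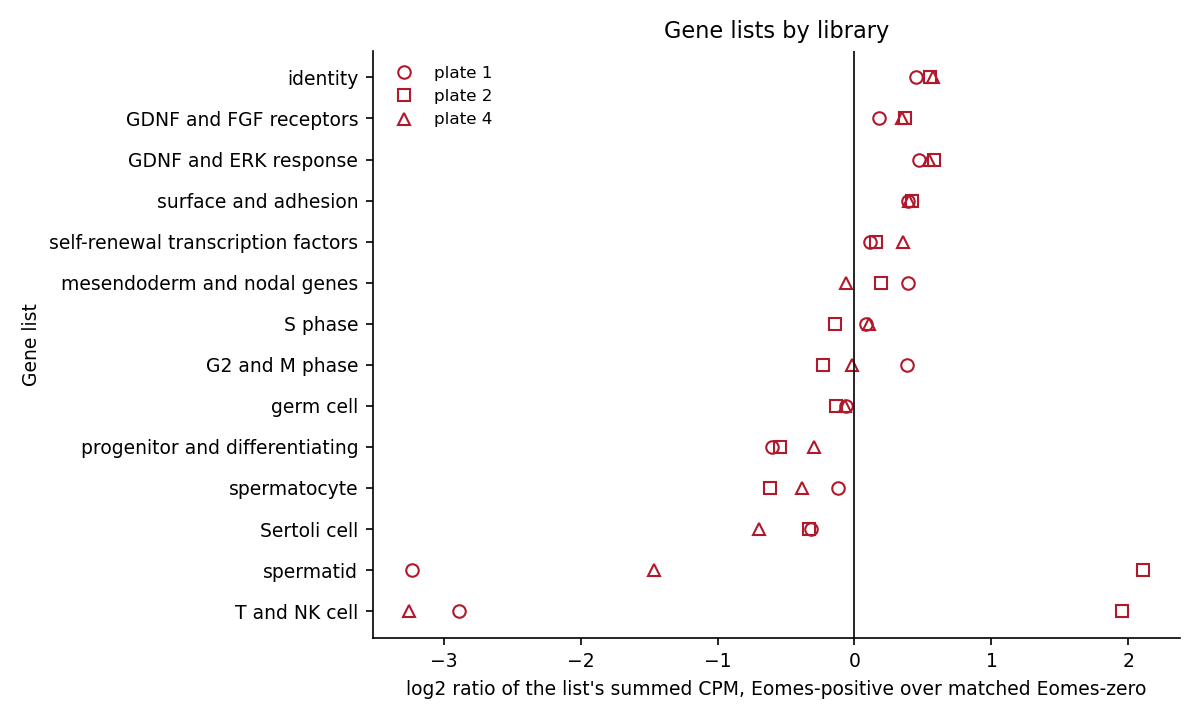
Log2 ratio of the summed CPM of 14 lists in Eomes-positive over matched Eomes-zero cells, with 1 symbol per plate. The identity, receptor, GDNF and ERK response, surface and self-renewal lists are above 0 and the germ cell, progenitor, spermatocyte and Sertoli cell lists below 0 on all 3 plates, while the spermatid and T and NK lists are above 0 on plate 2 only.

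Since Gfra1 was more frequent in Eomes-positive cells, the comparison was repeated within Gfra1-positive cells, 70 with and 210 without an Eomes UMI. Gfra1 itself was not tested here. Of 7833 genes 0 were called by edgeR (0.0%), with 342 (4.37%) at an unadjusted p under 0.05, and 0 by DESeq2, with 34 (0.434%). The Eomes-positive cells are nearly the same as in the first comparison, so the values are not independent of it. T was at 112, 99.7 and 34.3 CPM against 35.7, 41.1 and 14.5 CPM, higher in each library (log2 fold change 1.39, SE 0.34, edgeR adjusted p = 0.998). Id4 was at 127, 180 and 127 CPM against 82.5, 131 and 74.5 CPM (0.58), Lhx1 at 163, 147 and 132 CPM against 117, 86.7 and 85.4 CPM (0.59), and Ret at 141, 142 and 97.9 CPM against 89.9, 92.8 and 80.0 CPM (0.51). Bmi1 (0.38), Ccnd2 (0.45), Dusp6 (0.32) and Lin28a (-0.64) did not pass either. Without the doubted cells 2 genes were called, Hist1h1b and Ldhc.

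Cells with T but no Eomes UMI gave a further comparison, with 101 cells against the 85 Eomes-positive cells and without testing T. Their median depth was lower, at 5603 UMIs. Of 5244 genes 33 were called (0.629%), all higher in Eomes-positive cells, with 494 (9.42%) at an unadjusted p under 0.05. DESeq2 called 2 genes (0.0381%), with 2.40% at an unadjusted p under 0.05. The 12 of largest change were Ggnbp1 (log2 fold change 3.48), Cmtm2a (3.26), 1700034O15Rik (2.70), Ybx2 (2.64), Hspb9 (2.60), Lypd4 (2.58), Gk2 (2.45), Gm11837 (2.44), 4922502D21Rik (2.43), Osbp2 (2.41), Ccdc60 (2.31) and 1700013G24Rik (2.26), and several of them, such as Ybx2, which binds stored mRNA, are known from meiotic and postmeiotic germ cells. The Stra8 level could not be tested here, at 72.3, 38.5 and 26.7 CPM in Eomes-positive cells against 5.24, 6.55 and 6.21 CPM. Ggnbp1 was at 9.86, 316 and 560 CPM in Eomes-positive cells of plates 1, 2 and 4 against 0, 45.9 and 31.1 CPM, with the high values on the plates where spermatid genes were common. Without the deepest Eomes-positive cell 0 genes were called by edgeR, with 230 (4.68%) at an unadjusted p under 0.05. Without all doubted cells 1 gene was called, Ldhc, which was then lower (-2.36, edgeR adjusted p = 0.00666). The GDNF and ERK response list was lower in Eomes-positive than in T-positive cells, at 1439, 1329 and 1063 CPM against 1819, 1655 and 1621 CPM, with 8 of 11 tested genes below 0, a median of -0.45 beside 0.0042 over all genes, and 0 called. The receptor list was likewise at 733, 765 and 676 CPM against 970, 914 and 895 CPM, with 3 of 3 tested genes below 0 and 0 called. Without the doubted cells, however, its median of -0.20 became 0.12, while that of the response list was -0.30 over 7 genes. The identity list without T was also lower, at 703, 782 and 667 CPM against 954, 927 and 690 CPM. Of its 4 tested genes 3 were below 0 and 0 called (median -0.17). All 6 self-renewal transcription factors tested were below 0 (median -0.20, 0 called). Lists of later germ cells and the G2 and M phase list lay on the other side of 0. The S phase list did not, with 14 of 36 tested genes above 0 (median -0.06, 0 called). The spermatocyte list was at 1604, 2747 and 3972 CPM against 1248, 2090 and 1292 CPM, with 6 of 6 tested genes above 0 (median 0.44, 0 called). Of the spermatid genes 10 of 11 were above 0 (median 1.24, 1 called) and of the G2 and M phase genes 41 of 47 (median 0.37, 0 called). The summed spermatid list was nevertheless lower on plate 1, at 223 against 676 CPM. The summed G2 and M phase list was lower on plate 2, at 6631 against 7457 CPM. Both were higher on the other plates. Without the doubted cells the medians were 0.09 over 6 spermatocyte genes and 0.23 over 31 G2 and M phase genes. Their part in the result was not tested. Lhx1 was at 158, 132 and 129 CPM against 341, 170 and 267 CPM (-0.74, edgeR adjusted p = 0.239). Among the receptors, Gfra1 was at 286, 350 and 227 CPM against 451, 400 and 335 CPM (-0.34, SE 0.19, edgeR adjusted p = 0.616), and Bmi1 had a log2 fold change of 0.44, while Id4 and Zbtb16 were within 1 SE of no difference.

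The cells were also described by both T-box genes together, as 33 with Eomes and T, 52 with Eomes only, 101 with T only and the 222 matched cells with neither, with median depths of 7579, 6976, 5603 and 7261 UMIs in that order. Lhx1 was detected in 84.8%, 44.2%, 65.3% and 25.2% of these classes. Cells with both genes were the highest, followed by T only and Eomes only, and this order held on each plate. Nid1 was detected in 84.8%, 63.5%, 69.3% and 31.5%, and Tcl1 in 97.0%, 67.3%, 69.3% and 47.3%. Gfra1 was detected in 97.0%, 73.1%, 91.1% and 61.7%, and Etv4, a target of GDNF signaling, in 57.6%, 23.1%, 36.6% and 23.0%. For Gfra1, Nid1 and Tcl1 the cells with both genes were again highest and those with neither lowest. The differentiation gene Stra8 was detected in 12.1%, 17.3%, 3.96% and 28.4%, and Nanos3 in 9.09%, 19.2%, 9.90% and 26.1%, both most frequent in cells with neither T-box gene over all plates. This order did not hold on every plate. On plate 2 Nanos3 was at 22.2% in cells with both against 21.2% with neither. On plate 4 Nanos3 was at 46.2% in cells with Eomes only against 29.1% with neither, and Stra8 at 28.6% in cells with both against 23.6% with neither. Zbtb16 was nearly level over all plates, at 39.4%, 34.6%, 34.7% and 34.7%, but its order differed by plate. It was 44.4%, 33.3%, 32.6% and 28.8% on plate 2 and 28.6%, 46.2%, 26.9% and 34.5% on plate 4. These shares are descriptions over cells, which share libraries and are not replicates.

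**Figure D5:**
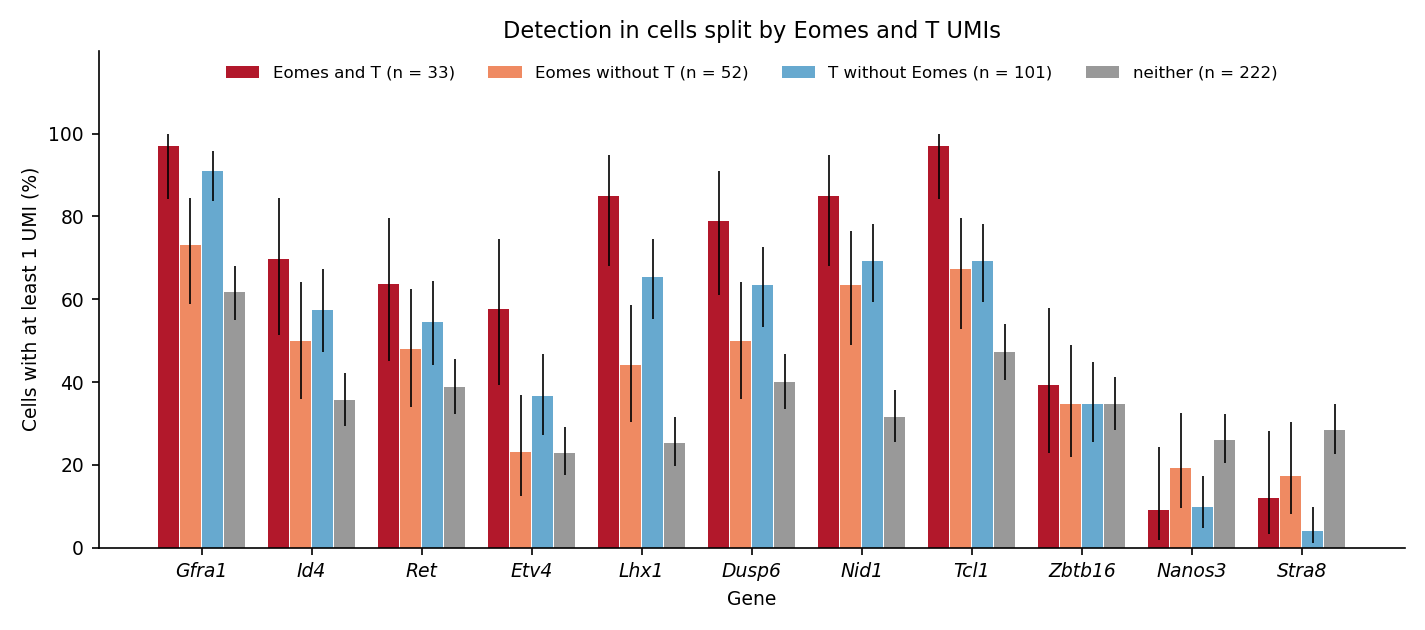
Share of cells with at least 1 UMI (%) for 11 genes in cells with Eomes and T, Eomes only, T only and neither, with exact 95% intervals that cover counting error only. For Lhx1 the bars stand at 84.8%, 44.2%, 65.3% and 25.2%, and for Zbtb16 they stand between 34.6% and 39.4%.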

How the data were processed

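Single cells of 3 Plzf +/+ libraries were analysed. The authors deposited raw UMI counts per gene symbol and cell, 1 table per genotype, without normalization. The submitters' processing notes name bcl2fastq 2.18.0.12, Picard 2.9.3, STAR 2.5.4a and GRCm38, with no role or order. The tables hold no row for tdTomato or Cre.

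Eomes-positive cells and gene lists were chosen with earlier results of these data known, so no list or pattern is independent support. Each Eomes-positive cell was matched to 3 Eomes-zero cells of its library by total UMIs. UMIs were summed per library and group and tested with edgeR 4.0.16 in R 4.3.3 (filterByExpr, TMM, robust quasi-likelihood fit, library as block, Benjamini-Hochberg adjustment, called under 0.05). The study's methods used cells as replicates, whereas here the replicate is the library. Pairing comes from the plate on which both groups were processed. DESeq2 1.42.0 was an alternative. Scripts were tested on simulated data with known changes. No gene test was made on Eomes, on Gfra1 within Gfra1-positive cells or on T against T-positive cells.

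The text names every called gene (the 12 of largest change moving 1 way in all 3 libraries where more were called), the genes of smallest p up to 20 in the first comparison, the identity genes and, of each list, members with the most UMIs. Genes named for detection or for the alternative without doubted cells were added after their values were seen. Thinning to 2000 UMIs used seed 1. Intervals are exact Clopper-Pearson at 95%, and where no cell had a UMI the limit is 3 counts divided by the number of cells. Wells use the same barcodes on each plate, and 5 wells held an Eomes-positive cell on 2 plates. No 2 cells had identical counts. Sums held 763176 UMIs over the Eomes-positive cells.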

Additional observations from a re-analysis of the deposited data

Results flagged for a closer look

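Plzf lu/lu cells entered no comparison, and they held 5 Eomes UMIs in 4 of 352 cells (1.14%, exact Clopper-Pearson 95% interval 0.310% to 2.88%). It is a signal in data that no comparison used. The 4 cells were on plate 3, had 12534 to 23051 UMIs, all had Gfra1 UMIs (3 to 9) and none had a T UMI.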

How the results depend on the processing

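Against matched cells the count of 2 called genes stayed at 2 with library size only, with RLE size factors, without the plate 4 cells outside their labelled wells, and after thinning to 2000 UMIs, where the 2 genes were others (Ankrd12 and Tcl1, both higher). It was 101 with no filter on low counts, 0 without the replicate block, 0 with DESeq2, 16 without cells of T and NK genes, 19 without cells of Sertoli or spermatid genes, 57 without cells over 4 times the median UMIs, 1 with 1 matched cell, 0 with 5 and 0 with all Eomes-zero cells. It was 0, 4 and 68 without the library of plate 1, 2 and 4 in turn. In alternatives added after seeing the data it was 50 without the deepest cell and 19 without all doubted cells. T was higher in all 16 alternatives where it was tested (log2 fold change 1.35 to 1.86) and called in 7. Gfra1 and Id4 were higher in all of theirs and called in 0.

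Within Gfra1-positive cells the count of 0 became 14 with no filter, 5 without cells of T and NK genes, 2 without cells of Sertoli or spermatid genes, 33 without cells over 4 times the median, 5 without the deepest cell and 2 without all doubted cells, and 0 to 14 without 1 library. It stayed at 0 without the replicate block. Against T-positive cells 33 became 477 with no filter, 0 without the replicate block, 2 with DESeq2, 0 without cells of T and NK genes, 1 without cells of Sertoli or spermatid genes, 12 without cells over 4 times the median, 0 without the deepest cell, 1 without all doubted cells and 0 after thinning. Without the library of plate 1, 2 and 4 it was 313, 6 and 64.

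The difference of 0.70 identity genes per cell was 0.30 after thinning, 0.88 against all Eomes-zero cells and 0.57 without doubted cells, and 0.65 to 0.76 without 1 library. Signs turned for Egr1 (-0.0066, thinned), Mael (0.0384, all Eomes-zero cells) and Nasp (0.0167, all Eomes-zero cells, and 0.20, thinned), for Dusp6 within Gfra1-positive cells (-0.0415 to 0.721 without 1 library), and against T-positive cells for Gk2 (-0.16 without cells over 4 times the median, -0.0200 for Eomes-positive cells with no T UMI) and Ldhc (-2.39 without cells of Sertoli or spermatid genes, -2.36 without all doubted cells, -0.0118 for Eomes-positive cells with no T UMI). The causes were not tested. With 1 or 2 Eomes UMIs per cell, depth limits which cells were found.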
